A study of Mus musculus with 11 samples.

Results

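Cbln1, its head-to-head noncoding neighbour Gm2694 and the other cerebellin genes, Cbln2, Cbln3 and Cbln4, were examined in the embryonic mouse dorsal telencephalon. They are 5 genes of the 46078 in the count tables, matched by symbol to the identifiers ENSMUSG00000031654, ENSMUSG00000097248, ENSMUSG00000024647, ENSMUSG00000040380 and ENSMUSG00000067578. Cbln1 and Gm2694 were among the genes higher in the libraries labelled L3mbtl3 knockout, and they were selected on that measured difference, so their values there are a description without a test. Cbln2 to Cbln4 were added because they belong to the same gene family.

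Cerebellins are secreted proteins with a C1q-like domain that assemble into multimers and bridge synapses. On the presynaptic side they bind neurexins, and on the postsynaptic side Cbln1 and Cbln2 bind delta glutamate receptors, among them the product of Grid1. Cbln1 is best known from cerebellar granule cells, whose parallel fibres it connects to Purkinje cells. Cbln4 binds the netrin receptor DCC and its relative neogenin, and Cbln3 is released from cells together with Cbln1. Gm2694 is annotated as a long intergenic noncoding RNA, and nothing about its function is assumed here.

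Polyadenylated RNA of CD-1 mice was measured in 11 libraries of 5 groups. At E12.5, whole dorsal telencephalon gave 1 wild-type library, 2 libraries of L3mbtl3 +/- heterozygotes and 2 labelled L3mbtl3 -/-. At E15.5, GFP+ cells were sorted from wild-type brains electroporated in utero at E12.5, 3 libraries with the empty vector pCIG2 and 3 with pCIG2-L3mbtl3, called L3mbtl3 gain below. L3mbtl3 encodes a chromatin reader with MBT domains. The E12.5 controls were the 2 heterozygote and 1 wild-type libraries together. Nothing in the labels says whether libraries of a group came from separate embryos or litters, so the p-values rest on the spread between these samples alone, and that spread may be technical. The sorted cells are those that took up plasmid, and the cell type or stage at which the plasmid is active is not given in the sources used here. A further experiment on sorted progenitors, named in the design text, was not analysed here.

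Libraries held between 16527551 and 26658718 counted reads. Emx1, a marker of the dorsal telencephalon, stood between 68.8 and 160 CPM (read counts scaled to library size by the trimmed mean of M-values, TMM) in all libraries. L3mbtl3 itself stood higher, not lower, with the knockout label, at 67.1 and 70.4 CPM against 57.5, 57.8 and 58.1 CPM in the controls. It rose by 0.27 on the log2 scale there (edgeR quasi-likelihood test, adjusted p = 0.0128), so the level of this transcript does not check the genotype and every direction below is that of the libraries as labelled. Without labelled knockout replicate 2 the value was 0.23 (edgeR, adjusted p = 0.0550). In the gain libraries L3mbtl3 stood at 892 to 1517 CPM against 49.98 to 59.5 CPM in the GFP controls. Among E12.5 libraries, labelled knockout replicate 2 was female by its Xist and Y-linked reads and the others male, and gain replicates 1 and 3 were the female libraries at E15.5.

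In the files' annotation (GRCm38), Cbln1 lies on the minus strand at chr8:87468854-87472592 with 2334 exonic bases. Gm2694 lies on the plus strand at chr8:87472812-87525554 with 5005 exonic bases. Their 5′ ends are 220 bases apart and point away from each other, and no exonic base of either falls in an exon of the other. Another annotation, GENCODE M21, extends Gm2694 backwards across Cbln1 on the opposite strand and covers all 3739 bases of its span. Reads were counted by strand, per the file headers, and in the files the far end of that upstream stretch is a separate gene, Gm19872 (chr8:87460469-87463797). It had 0 counts in every library, but it ends short of Cbln1, so its counts do not cover the stretch across Cbln1. Cbln3 lies at chr14:55878920-55884256 and Cbln4 at chr2:172036233-172043466, both on the minus strand. Of the 75-base words in the members' transcripts, Cbln1, Cbln2 and Cbln4 shared none with other genes. For Gm2694, 360 of 5995 words occurred elsewhere, in Gm27016, Gm19872 and Fut8. The words were taken from GENCODE M21 transcripts, in which Gm2694 reaches further than in the files. Gm27016, on the opposite strand, and Gm19872 had 0 counts in every library. Fut8 held 7 of the matches, and whether reads were shared with it was not tested.

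A stretch at the start of Gm2694 is shown because Gm2694 had the largest fold difference of the 5 members. The sequence is the RefSeq promoter window of Gm2694 on GRCm38.p6, plus strand, chr8:87472866-87473165, from 250 bases before to 50 bases after the RefSeq start, and it lies inside Gm2694 as the count files give it. It holds neither the 5′ end of Cbln1 nor the Gm2694 5′ end of the count files. Capitals mark E-boxes, CANNTG, the motif that proneural and other basic helix-loop-helix factors recognise.
Gm2694: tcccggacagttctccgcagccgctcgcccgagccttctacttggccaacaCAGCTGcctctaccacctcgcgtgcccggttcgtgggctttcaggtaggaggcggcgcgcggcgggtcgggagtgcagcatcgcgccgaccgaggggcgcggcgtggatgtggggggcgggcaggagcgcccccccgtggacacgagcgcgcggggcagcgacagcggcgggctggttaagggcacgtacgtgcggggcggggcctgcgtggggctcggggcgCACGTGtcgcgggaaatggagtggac

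The window held 2 E-boxes, CAGCTG and CACGTG, counted on one strand because the motif reads alike on both. Of 32851 RefSeq windows of this length, 72.3% held at least 1 and 39.6% at least 2. The window held 42 CpG dinucleotides, one of them inside CACGTG, where the median window had 7 and 3.0% had as many, and its GC content was 73.7%. A match of letters is a description and not evidence of binding.

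Cbln1 and Gm2694 were both several-fold higher in the libraries labelled knockout than in their E12.5 controls. Cbln1 had 530 and 484 reads (23.4 and 20.5 CPM) in the 2 labelled-knockout libraries. Its controls had 192 and 118 reads (6.73 and 6.45 CPM) in the heterozygotes and 170 reads (7.76 CPM) in the wild-type. The 2 groups did not overlap, and the wild-type and heterozygote libraries lay close together. The means were 22.0 ± 2.04 CPM (SD, n = 2) and 6.98 ± 0.692 CPM (SD, n = 3), a 3.15-fold difference, or 1.67 on the log2 scale (SE 0.108).

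Gm2694 differed more than Cbln1 in fold and less in level. It had 275 and 346 reads (12.2 and 14.7 CPM) in the labelled-knockout libraries. The heterozygotes had 60 and 37 reads (2.10 and 2.02 CPM) and the wild-type 54 reads (2.47 CPM). Again the groups did not overlap. The means were 13.4 ± 1.79 CPM (SD, n = 2) and 2.197 ± 0.236 CPM (SD, n = 3), a 6.11-fold difference, or 2.63 on the log2 scale (SE 0.147). The library that was higher in Cbln1, labelled knockout replicate 1, was the lower of the pair in Gm2694.

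The other cerebellins differed far less in the same libraries. Cbln2, a cerebellin of forebrain neurons, had 23.6 and 22.5 CPM in the labelled-knockout libraries. Its E12.5 controls had 21.9 and 21.6 CPM in the heterozygotes and 17.1 CPM in the wild-type, and the log2 difference was 0.20 (SE 0.0964). Cbln4 had 4.07 and 3.48 CPM against 3.19, 3.22 and 3.15 CPM, a log2 difference of 0.26 (SE 0.166). Cbln3 was scarce, with 21 and 20 reads against 31, 12 and 15, and the groups overlapped. Of the 3 members not chosen for this difference, both labelled-knockout libraries stood above all 3 controls for Cbln2 and Cbln4, as they did for 14.4% of the 16361 genes tested. Of all genes tested, 7.41% were called in either direction at an adjusted p under 0.05, and 3.63% were called higher. The median log2 difference over all genes was -0.00.

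**Figure D1:**
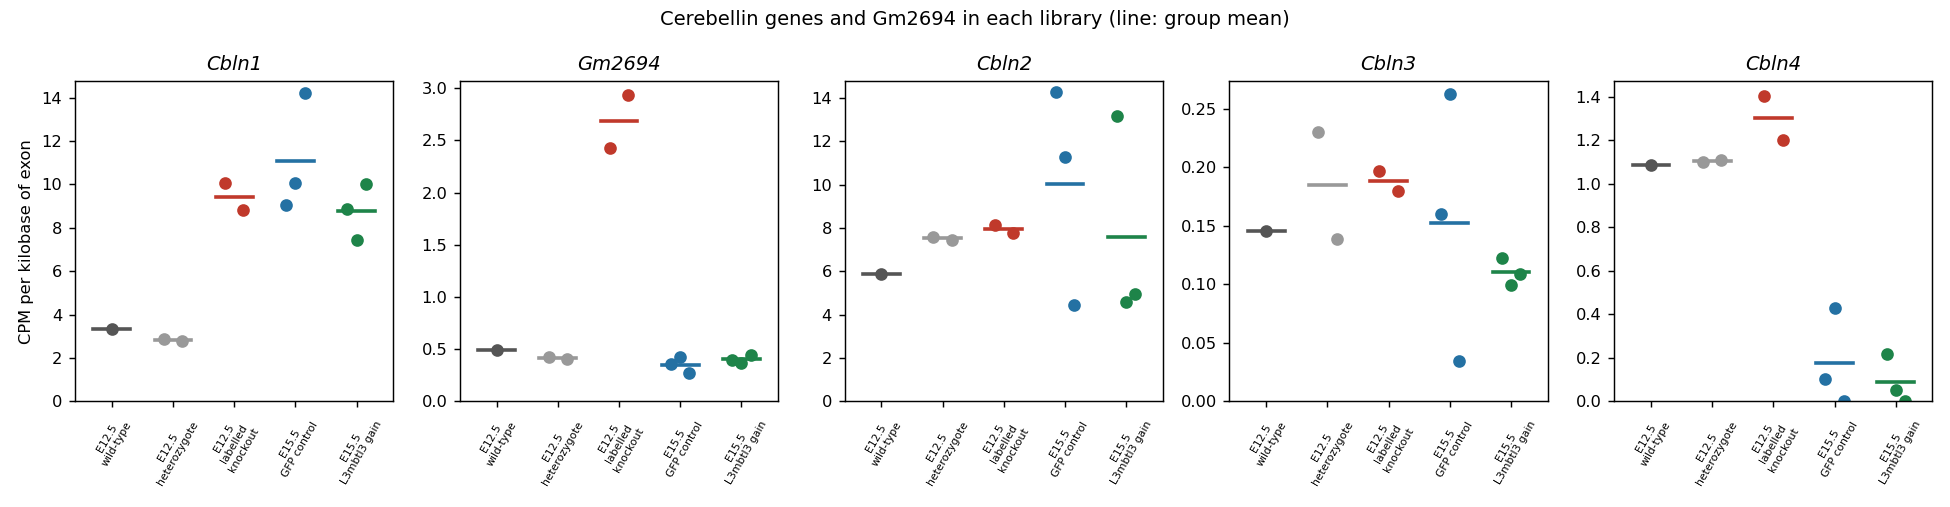
Levels of Cbln1, Gm2694, Cbln2, Cbln3 and Cbln4 in CPM per kilobase of exon (vertical axes, each starting at 0 with its own range), 1 point per library in the 5 groups, with a line at the group mean. The 2 labelled-knockout libraries stand at 10.04 and 8.80 for Cbln1 and at 2.43 and 2.93 for Gm2694, above every E12.5 control, while Cbln2 is spread widely among the E15.5 libraries.

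These are bulk libraries, in which fewer cells of a type and less RNA per cell cannot be told apart. Markers of several cell types moved in the same libraries, where 3.63% of all genes were called higher and 3.78% lower. Of 15 ventral telencephalon and GABAergic markers tested, 4 were called higher and none lower, with a summed level of 263 to 297 CPM in the labelled-knockout libraries and 192 to 224 CPM in the controls. Of 11 cortical hem markers, 3 were called higher (389 to 470 against 344 to 364 CPM). Of 10 choroid plexus markers, 8 were called lower (282 to 286 against 601 to 660 CPM), and of 8 intermediate progenitor markers, 5 were called lower (714 to 729 against 872 to 919 CPM). The part of these in the values of Cbln1 and Gm2694 was not tested. Markers of midbrain, hindbrain and cerebellum, where Cbln1 is best known, were scarce. Of those 12 genes, 3 (Pax2, Pax5 and Pax8) passed the filter and none was called by edgeR, and their levels summed to 2.12 to 4.58 CPM in the labelled-knockout libraries and 2.45 to 3.70 CPM in the controls. Pax5, the highest of them, had 19 and 63 reads in the labelled-knockout libraries and 36, 38 and 35 in the controls. Hoxa2 and Hoxb1 had no reads in any E12.5 library, and Atoh1, which specifies cerebellar granule cells, had 0 and 1 read in the labelled-knockout libraries and none in the controls.

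Of the reads falling on either gene of the pair, the share on Gm2694 differed between the groups, and is given for the labelled-knockout libraries as a description. In the E12.5 controls it was 23.8% (95% exact Clopper-Pearson interval 18.7 to 29.6) and 23.9% (17.4 to 31.4) in the heterozygotes and 24.1% (18.7 to 30.3) in the wild-type. In the libraries labelled knockout it was 34.2% (30.9 to 37.6) and 41.7% (38.3 to 45.1). These intervals cover counting error only. The 3 controls agree within counting error, and both labelled-knockout shares lie above the highest of them. The interval of labelled knockout replicate 1 overlaps that of heterozygote replicate 2. The intervals of labelled knockout replicates 1 and 2 do not overlap each other, so the 2 libraries differ by more than counting error.

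In the sorted E15.5 cells the share was smaller. The 3 GFP controls had 7.91%, 8.29% and 3.92%, and the 3 gain libraries had 8.84%, 9.54% and 8.69%. Every gain library stood above every GFP control, by a mean of 0.54 on the log2 ratio of Gm2694 to Cbln1 reads. The two-sided exact permutation test gave p = 0.1, which is the smallest value that 3 against 3 libraries allow. GFP control replicate 3 lay below the rest, with 25 Gm2694 reads beside 613 Cbln1 reads, and without it the difference was 0.17.

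**Figure D2:**
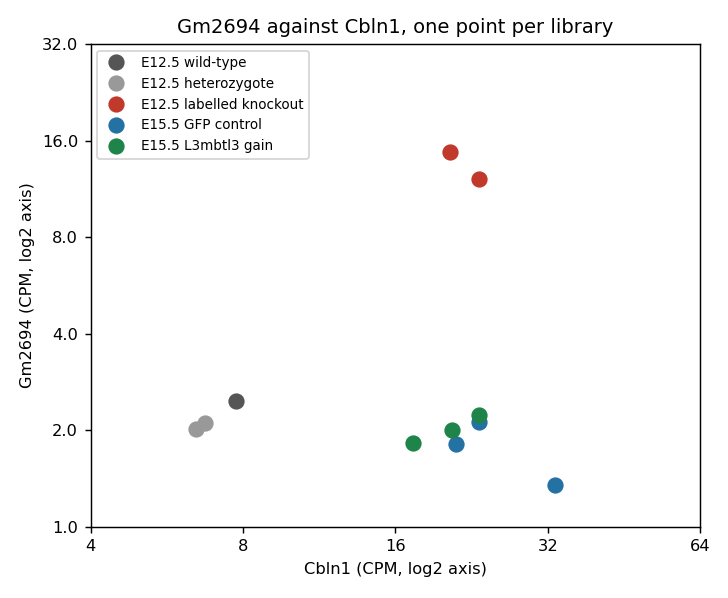
Gm2694 (vertical) against Cbln1 (horizontal) in CPM, both axes on a log2 scale, 1 point per library coloured by group. The labelled-knockout libraries combine a Cbln1 level of 20.5 to 23.4 CPM with the highest Gm2694 levels, 12.2 and 14.7 CPM, whereas the E15.5 libraries reach a like or higher Cbln1 level with 1.35 to 2.23 CPM of Gm2694.

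The tested genes around the pair differed little in the libraries labelled knockout. Within 1 Mb of the Cbln1 start the files hold 35 other genes, of which 13 had 0 counts in all libraries and 21, those 13 included, had at most 3 counts in every library. Of these 35, 10 passed the filter in the labelled-knockout comparison, and their log2 differences ran from -0.24 to 0.27. Of all genes tested there, 7.41% were called in either direction and 3.63% higher. Only Zfp423 of these 10 neighbours was called, a zinc finger transcription factor whose start lies 487 kb away. It had 62.2 and 73.3 CPM in the labelled-knockout libraries and 57.9, 54.1 and 58.3 CPM in the controls, and it rose by 0.27 on the log2 scale (SE 0.0710; adjusted p = 0.0423, edgeR). That call was lost without labelled knockout replicate 2 or without any 1 of the 3 controls, and also with a replicate block and in 1 fit of all 11 libraries. The nearest tested gene on the other side, the pseudogene Rps13-ps1 at -424.9 kb, had a log2 difference of -0.24 (SE 0.446; adjusted p = 0.818 by edgeR). N4bp1, an RNA-binding regulator of immune signalling, had 0.15 (SE 0.0584; adjusted p = 0.145 by edgeR). In the gain comparison 10 neighbours were tested and neither edgeR nor DESeq2 called any. Of these 10, 2 had an unadjusted p under 0.05, beside 8.6% of all genes. Between the stages 2 of 11 rose and 3 fell, where 31.1% and 31.3% of all genes did (62.3% called in either direction), from Adcy7, an adenylate cyclase, which fell by 2.62 (SE 0.263), to the ubiquitin ligase gene Siah1a, which rose by 1.72 (SE 0.147).

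**Figure D3:**
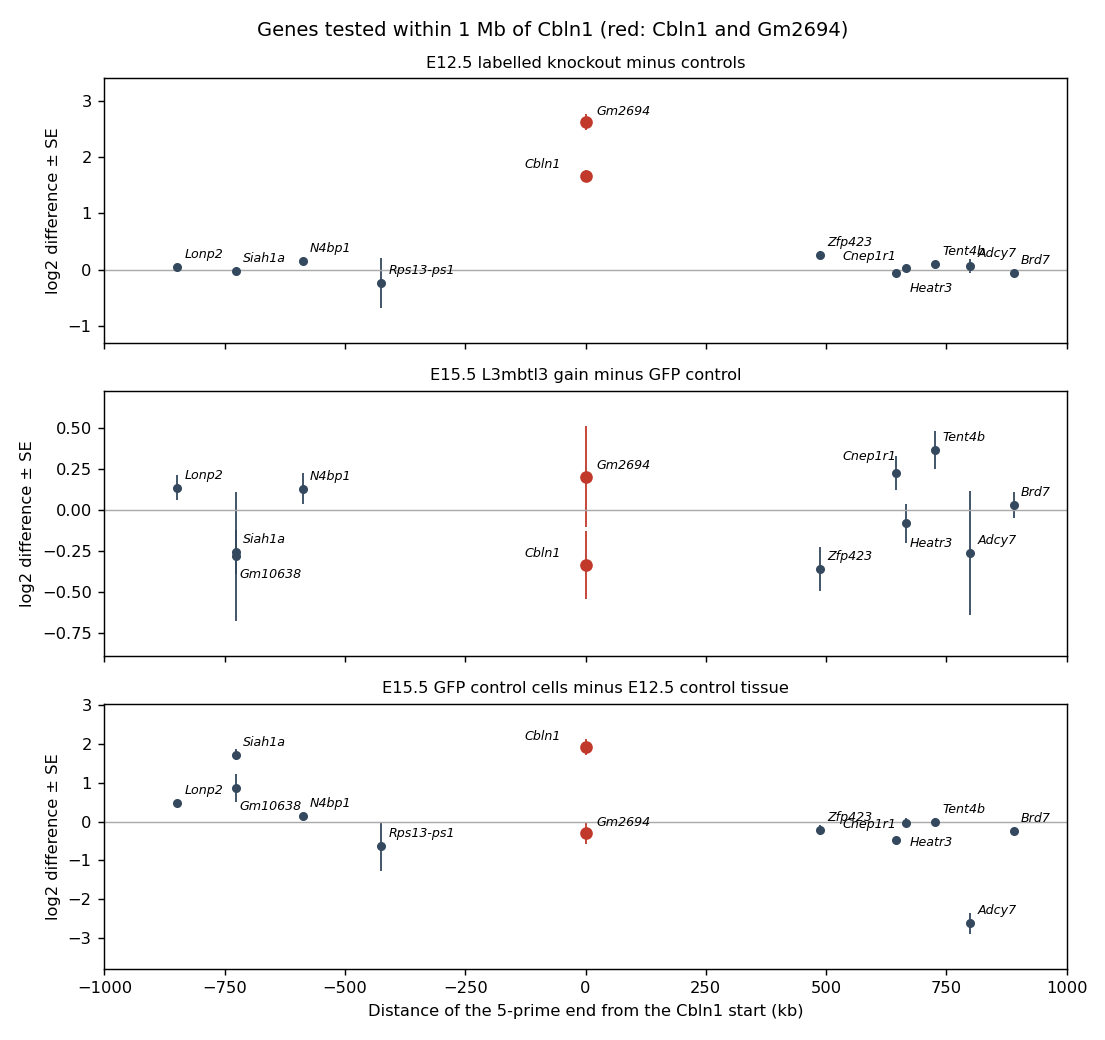
Log2 difference with its SE (vertical) of each tested gene within 1 Mb, by distance of its 5′ end from the Cbln1 start in kb (horizontal), in the labelled-knockout, gain and stage comparisons from top to bottom, each with its own vertical range. In the top panel Gm2694 stands at 2.63 and Cbln1 at 1.67, and both were chosen on this difference. The other 10 genes lie between -0.24 and 0.27.

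Raised L3mbtl3 in the sorted E15.5 cells came with no called change in any cerebellin or in Gm2694. Cbln1 had 20.7, 17.3 and 23.4 CPM in the gain libraries and 21.1, 23.5 and 33.1 CPM in the GFP controls. The groups overlapped, with GFP control replicate 3 the highest library. The log2 difference was -0.33 (SE 0.208; adjusted p = 0.635, edgeR). Gm2694 had 2.00, 1.82 and 2.23 CPM against 1.81, 2.12 and 1.35 CPM, a log2 difference of 0.20 (SE 0.308; adjusted p = 0.827, edgeR). The Gm2694 groups overlapped too, and neither difference was called.

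Cbln2 varied more within each sorted group than between them. It had 38.1, 13.2 and 14.4 CPM in the gain libraries and 41.4, 32.7 and 12.9 CPM in the GFP controls, a log2 difference of -0.40 (SE 0.526; adjusted p = 0.800, edgeR). The sorted libraries also differed in ventral and GABAergic markers, whose 17 genes summed to 1287, 431 and 49.4 CPM in GFP control replicates 1, 2 and 3. In gain replicates 1, 2 and 3 the sums were 362, 371 and 56.4 CPM. The libraries at both extremes of Cbln2 among the GFP controls were those at the extremes of these markers, but gain replicate 2 combined a low Cbln2 level with a marker sum close to that of gain replicate 1. The part of these markers in the Cbln2 values was not tested. Cbln3 had 11, 9 and 9 reads in the gain libraries and 15, 21 and 3 in the GFP controls, a log2 difference of -0.44 (SE 0.674; adjusted p = 0.827, edgeR). Cbln4 had 12, 3 and 0 reads against 6, 21 and 0 and did not pass the filter on low counts. None of the 4 members tested was called by edgeR or DESeq2, and none had an unadjusted p under 0.05, where edgeR called 0.0136% of all 14698 genes and 1264 (8.6%) had an unadjusted p under 0.05. Leaving out GFP control replicate 1 raised the calls over all genes from 2 to 415, and none of those 4 members was among them.

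Between E12.5 control tissue and E15.5 sorted control cells, Cbln1 rose, Cbln4 fell and Gm2694 was not called. Age, sorting and electroporation differ together here and cannot be told apart. Genotype differs in part as well, since the tissue group includes L3mbtl3 +/- heterozygotes and the sorted cells came from wild-type brains. Both groups also serve as controls in the other comparisons. Cbln1 had 21.1, 23.5 and 33.1 CPM in the sorted cells against 6.73, 6.45 and 7.76 CPM in the tissue, without overlap. The rise was 3.71-fold, which is 1.91 in log2 (SE 0.211; adjusted p = 0.000383, edgeR). The same E12.5 controls entered the difference on which Cbln1 and Gm2694 were chosen. The tests of these 2 genes between the stages are therefore not independent of that choice. Gm2694 stood at 1.81, 2.12 and 1.35 CPM against 2.10, 2.02 and 2.47 CPM. Its groups overlapped, and the log2 difference was -0.30 (SE 0.272; adjusted p = 0.369, edgeR). The share of Gm2694 in the reads of the pair was lower in every sorted library than in every tissue library, by 2.21 on the log2 ratio, and the two-sided exact permutation test gave p = 0.1, the smallest value 3 against 3 libraries allow.

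Cbln4 had 6, 21 and 0 reads in the sorted GFP controls (0.302, 1.24 and 0 CPM) against 91, 59 and 69 reads (3.19, 3.22 and 3.15 CPM) in the E12.5 controls. The library at 0 allows up to 3 counts, or 0.162 CPM. Cbln4 fell by 2.64 on the log2 scale (SE 0.853; adjusted p = 0.0322, edgeR), and this call was lost without GFP control replicate 1 or without any 1 of the 3 E12.5 controls. The log2 values without those libraries ran from -2.65 to -2.37. Cbln2 had a log2 difference of 0.54 (SE 0.387; adjusted p = 0.258, edgeR) and was called higher, at 0.90, without GFP control replicate 3. Cbln3 had a log2 difference of -0.17 (SE 0.630; adjusted p = 0.824, edgeR). Thus 2 of 5 members were called, in a comparison in which 62.3% of all 15968 genes were called, 31.1% higher and 31.3% lower (4963 and 4992 genes, or 3590 and 6525 with library totals as scaling). All 3 sorted libraries stood above all 3 tissue libraries for Cbln1, as for 34.0% of all genes, and below them for Cbln4, as for 38.1%. Among the cell type markers tested, all 7 upper-layer neuron markers were called higher and all 11 cortical hem markers lower, and 7 of 10 apical progenitor markers were lower. Their part in the cerebellin values was not tested.

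Set side by side per length, Cbln1 and Cbln2 were the most abundant members in every group. In the E12.5 controls Cbln2 had 6.98 ± 0.937 CPM per kilobase of exon (SD, n = 3) and Cbln1 2.99 ± 0.297. Cbln4 had 1.10 ± 0.0125, Gm2694 0.439 ± 0.0472 and Cbln3 0.171 ± 0.0510 on the same scale. In the libraries labelled knockout Cbln1 reached 9.42 ± 0.873 CPM per kilobase (SD, n = 2), beside 7.96 ± 0.281 for Cbln2, so the order of the leading pair was exchanged. Gm2694 reached 2.68 ± 0.358 and passed Cbln4 at 1.30 ± 0.143. In the sorted GFP controls Cbln1 at 11.1 ± 2.73 and Cbln2 at 10.01 ± 5.04 CPM per kilobase (SD, n = 3) overlapped library by library.

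Across the 5 groups, Cbln1 was highest in the sorted GFP controls (mean 25.9 CPM), followed by the labelled-knockout libraries (22.0 CPM) and the gain libraries (20.5 CPM), and neighbouring groups in that order overlapped. The wild-type library (7.76 CPM) and the heterozygotes (6.59 CPM) were lowest and separate from the other 3 groups. Gm2694 had another order. The labelled-knockout libraries led at 13.4 CPM, apart from all other libraries, and the remaining 9 libraries lay between 1.35 and 2.47 CPM. The wild-type library (2.47 CPM) came next, above the heterozygotes (2.06 CPM), which overlapped with the gain libraries (2.02 CPM), as these did with the GFP controls (1.76 CPM). For Cbln2 the order by mean was GFP control, labelled knockout, gain and heterozygote, each overlapping with the next, and the wild-type library was lowest. Cbln4 separated the E12.5 tissue from the sorted E15.5 cells, with every E12.5 library at 3.15 CPM or more and every E15.5 library at 1.24 CPM or less. Cbln3 stayed at 1.24 CPM or less in all libraries, in the order labelled knockout, heterozygote, GFP control, wild-type and gain by mean. Neighbours in that order overlapped, except that the 3 gain libraries lay below the single wild-type library.

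The receptors to which cerebellins bind were measured as a list of 7 genes. In the labelled-knockout comparison all 7 were tested and edgeR called none, while 3 had an unadjusted p under 0.05, as did 22.0% of all genes, and DESeq2 called 1. The median log2 difference of the list was 0.02. Nrxn3, a neurexin, had a log2 difference of 0.51 (SE 0.194; adjusted p = 0.174, edgeR), and Nrxn2, Grid1, Dcc and Neo1 lay between -0.11 and 0.32. Of these 5 genes, and among fits that kept both labelled-knockout libraries, edgeR called Nrxn3 without heterozygote replicate 2 (0.69, adjusted p = 0.0356, edgeR). It also called Nrxn3 without the filter on low counts (0.51, adjusted p = 0.00028, edgeR). Without labelled knockout replicate 1 the log2 difference of Dcc was -0.29, farther from 0 than in the main fit. That fit holds 1 labelled-knockout library, so only the size is given.

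In the gain comparison 6 of the 7 receptor genes were tested, and edgeR and DESeq2 called none. Of these 6, 1 had an unadjusted p under 0.05, beside 8.6% of all genes. Neo1, which encodes neogenin, was the one with all 3 gain libraries (506, 440 and 507 CPM) above all 3 GFP controls (414, 383 and 341 CPM), an arrangement found for 9.21% of all genes. Its log2 difference was 0.36 (SE 0.1099; adjusted p = 0.521, edgeR). Nrxn3 ran from 3.77 to 89.9 CPM among the sorted libraries, with GFP control replicate 3 and gain replicate 3 lowest, the same libraries that were lowest in the ventral and GABAergic markers.

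Between E12.5 tissue and sorted E15.5 cells, 3 of the 7 receptor genes rose and 2 fell (edgeR), beside 31.1% and 31.3% of all genes, with a list median of 0.95 against -0.02 over all genes. Nrxn2 rose by 2.56 on the log2 scale (SE 0.171; adjusted p = 6.8e-05, edgeR), from a mean of 42.6 to 247 CPM. Neo1 rose by 0.95 (SE 0.0856). Dcc, the netrin receptor that binds Cbln4, fell by 1.00 (SE 0.122), from a mean of 120 to 59.3 CPM. Nrxn3 at 2.25 (SE 0.853; adjusted p = 0.0554, edgeR) and Grid1 at 0.38 were not called, though Nrxn3 was without GFP control replicate 3 (2.78; adjusted p = 0.00143, edgeR). Per length, Neo1 stood at 46.2 to 56.0 and Nrxn2 at 14.03 to 21.8 CPM per kilobase in the sorted GFP controls.

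**Figure D4:**
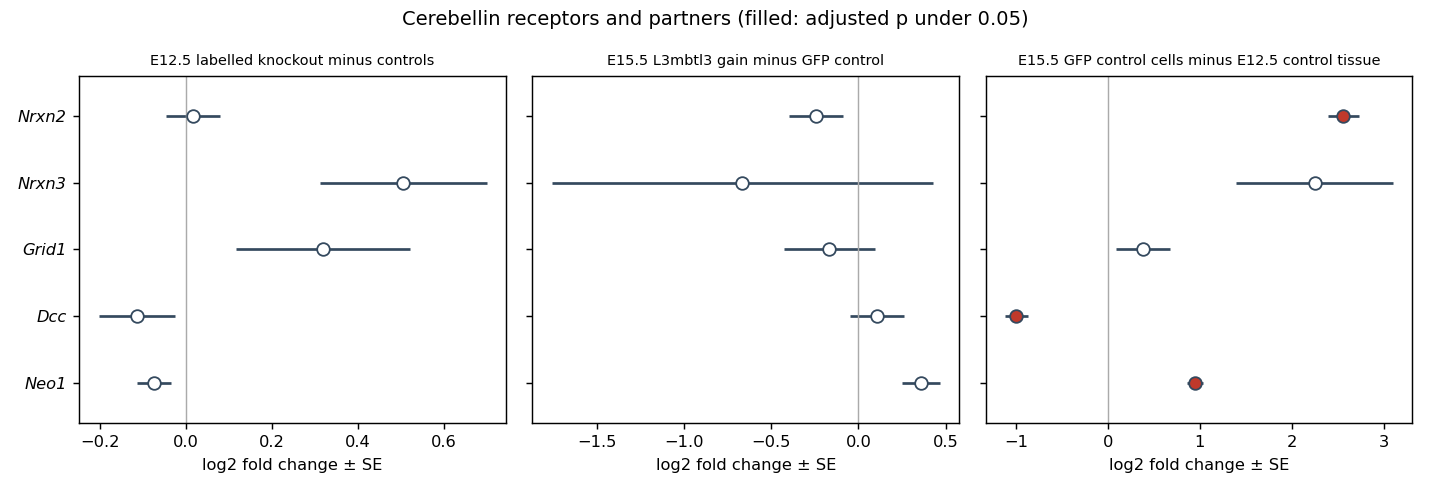
Log2 fold change with its SE (horizontal) of 5 cerebellin receptors and partners in the labelled-knockout, gain and stage comparisons, with filled points where the adjusted p was under 0.05 and each panel on its own range. No point is filled in the first 2 panels, and in the stage comparison Nrxn2 and Neo1 are filled above 0 and Dcc below 0.

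Other synaptic organisers, adhesion molecules that join the 2 sides of a synapse, were followed as a list of 32 genes. In the labelled-knockout comparison 31 were tested, 4 rose and 3 fell, where 3.63% and 3.78% of all genes did, and the list median was -0.01. Slitrk5, a transmembrane protein that binds receptor-type tyrosine phosphatases, rose by 0.86 (SE 0.0733; adjusted p = 6.1e-05, edgeR), from a mean of 22.2 to 39.7 CPM. The latrophilins, adhesion receptors for teneurins, rose less, with Adgrl1 at 0.33, Adgrl3 at 0.28 and Adgrl2 at 0.16. Lrrtm2, a postsynaptic neurexin ligand, fell by 0.79 (SE 0.191; adjusted p = 0.0293, edgeR), from a mean of 3.998 to 2.28 CPM. That call was lost without heterozygote replicate 2, labelled knockout replicate 2 or the wild-type library, at -0.71, -0.71 and -0.76. Slitrk2 fell by 0.43 and Clstn3 by 0.30. When each library was left out in turn, Adgrl2 kept its call in 3 of 5 fits and Adgrl3 and Clstn3 in 1 of 5 each. Without the wild-type library 3 of these 31 genes were called, and without heterozygote replicate 2 there were 4, and 1 fit of all 11 libraries called none.

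In the gain comparison 30 organisers were tested and edgeR called none. Of these 30, 5 had an unadjusted p under 0.05, beside 8.6% of all genes, and DESeq2 called Ptprd. Between the stages 23 of 31 rose and 3 fell, beside 31.1% and 31.3% of all genes, with a list median of 1.44. Clstn2, a calsyntenin, rose by 4.28 (SE 0.294; adjusted p = 7.3e-05, edgeR). Lrrtm1 rose by 3.11 and Lrrtm2 by 2.89. Slitrk2 fell by 1.23 and Slitrk4 by 1.28, and Slitrk4 lost its call without any 1 of the 3 E12.5 controls (-1.31 to -1.25). Slitrk6 was called lower (adjusted p = 0.00168, edgeR), with 3, 0 and 0 reads in the sorted GFP controls against 44, 34 and 36 in the tissue. These are too few reads to give a fold, and the fitted log2 value ran from -8.13 without GFP control replicate 1 to -4.25 without GFP control replicate 3.

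Relatives with a C1q-like domain, together with the receptor gene Adgrb3, formed a list of 17 genes. In the labelled-knockout comparison 13 were tested and edgeR called none, and none had an unadjusted p under 0.05 or was called by DESeq2. Their median log2 difference was -0.23. In the gain comparison edgeR called none of 7, with 3 at an unadjusted p under 0.05, beside 8.6% of all genes. DESeq2 called 3, the complement genes C1qa, C1qb and C1qc of microglia. The summed microglial markers stood at 5.85 to 8.65 CPM in the gain libraries and 15.4 to 38.4 CPM in the GFP controls. These 9 markers include C1qa, C1qb and C1qc, and the other 6 summed to 4.80 to 6.10 CPM and 11.3 to 25.6 CPM. Their part in this was not tested. Between the stages 1 of 12 rose and 6 fell, beside 31.1% and 31.3% of all genes. The 1 that rose was C1qtnf4, a secreted C1q-TNF relative, by 2.62 (SE 0.398; adjusted p = 0.00148, edgeR). Its mean went from 4.53 CPM (SD 0.327) to 27.3 CPM (SD 14.4).

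To find genes with a like pattern, log2 CPM values were centred on the mean of each stage and correlated over the 11 libraries for 17793 genes. All points share these libraries and their scaling, and the contrast that chose the pair enters the correlation, so the coefficients are a description. For Cbln1 the closest 5 were Gabrb2 (Pearson's r = 0.956), Jag2 (0.948), Ank (0.933), Nanos1 (0.930) and Slitrk5 (0.930). Gm2694 came in place 18 (0.869). The other cerebellins were far from Cbln1 in this measure, with r = 0.00 for Cbln2, -0.10 for Cbln3 and -0.07 for Cbln4.

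Gabrb2, a GABA-A receptor subunit, had 11.1 and 9.89 CPM in the labelled-knockout libraries and 4.87, 4.59 and 4.70 CPM in their controls. Among the sorted libraries it had its highest level, 23.8 CPM, in GFP control replicate 3, the library also highest in Cbln1, and 12.6 to 14.7 CPM in the other sorted libraries. Jag2, a Notch ligand, had 40.2 and 45.5 CPM against 17.4, 16.6 and 17.03 CPM at E12.5 and 59.1 CPM in GFP control replicate 3, where the other sorted libraries had 29.0 to 38.3 CPM. Both genes were thus high in the same 3 libraries of the series as Cbln1 when each stage is read on its own.

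For Gm2694 the closest 5 included Pax7 (r = 0.951), Abca7 (0.946), Cux2 (0.941) and Gata1 (0.931), with Cbln1 in place 21. Pax7, a paired-box factor of the dorsal neural tube, had 39 and 57 reads in the labelled-knockout libraries against 25, 13 and 22 in their controls, and no reads in any sorted library. Abca7, a lipid transporter, was well above its controls at 49.7 and 49.5 CPM against 18.7, 18.2 and 17.6 CPM. Gata1, an erythroid factor, had 32 and 32 reads against 20, 8 and 14 in the controls, and no reads in any sorted library. The coefficients of Pax7 and Gata1 therefore rest on the E12.5 libraries, which hold the contrast that chose Gm2694.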

How the data were processed

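The authors deposited raw counts of reads per gene. Per the file headers, featureCounts 2.0.1 made them with reverse-stranded counting, and the submitters' processing notes name HISAT2 2.2.1 and GRCm38. The deposited exon length (another column of the same files) is in bases. The members and the gene lists were chosen with earlier results of these data known. Counts were tested with edgeR 4.0.16 in R 4.3.3 (robust quasi-likelihood test, TMM scaling, filterByExpr, Benjamini-Hochberg over all genes tested, calls at an adjusted p under 0.05). Log2 differences are fitted values, with the SE derived from the test. CPM values were TMM-scaled over all 11 libraries. Alternatives were DESeq2 1.42.0, no filter, library totals as scaling, 1 fit of all libraries, a replicate block and leaving out each library. The fits were tested on simulated data. A count of 0 allows up to 3 counts, or 0.105 to 0.177 CPM by library. Libraries of one group differed beyond sampling noise. Named genes were the members, the receptors, called genes of the other lists, tested neighbours and the 5 genes most like Cbln1 or Gm2694. Some genes that this rule names are not reported here.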

Additional observations from a re-analysis of the deposited data

How the results depend on the processing

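Each arm held 2 or 3 libraries, and Cbln3 and Cbln4 rest on at most 31 and 92 reads per library. Over all alternatives the log2 difference of Cbln1 in the labelled-knockout comparison ran from 1.57 to 1.76 and that of Gm2694 from 2.48 to 2.76, and the stage difference of Cbln1 ran from 1.63 to 2.04. Of 1369 alternative values, 1213 kept their direction and their side of the threshold. Scaling by library totals moved the median of all genes in the stage comparison by -0.27 (log2), so values there shift by about as much, and N4bp1 turned to -0.14. On that scaling Cbln1 stood at 3.70, 3.07 and 10.40 CPM per kilobase in the wild-type, heterozygote and labelled-knockout groups. Cbln2 stood at 8.19 and 8.78 in the heterozygotes and labelled knockouts, Gm2694 at 0.549 and 0.448 and Cbln4 at 1.21 and 1.20 in the wild-type and heterozygotes, and Cbln3 at 0.208 in the labelled knockouts. The causes of the changes below were not tested.

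DESeq2 called 122 genes in the gain comparison (78 higher, 44 lower) where edgeR called 2, with 3 C1q relatives and 1 organiser among them, and 1 receptor in the labelled-knockout comparison. Without the filter on low counts 2266 genes were called in the labelled-knockout comparison instead of 1213, and 3 receptors. In 1 fit of all 11 libraries 6 genes were called there, with 0 organisers and 0 neighbours. Ranked by Spearman's rho, 3 of the 5 genes most like Cbln1 and 3 of the 5 most like Gm2694 stayed.

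The correlations do not settle whether replicate numbers pair the samples, and the main fits used no pairing. Same-numbered gain and GFP libraries deviated together with r = 0.148, -0.0109 and 0.175. For gain replicates 1 and 3 the same-numbered GFP control correlated best, whereas gain replicate 2 correlated better with GFP control replicate 1 (0.0702). With the replicate block no neighbour (0) was called in the labelled-knockout comparison, where Nrxn2 stood at -0.0022. In the stage comparison with this block Cbln2 was called at 0.90, Cbln3 turned to 0.25 and Tent4b to 0.074.

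Leaving out each library in turn gave 0 to 415 calls in the gain comparison, with 0 to 2 C1q relatives, 0 to 3 organisers and 0 to 1 neighbours. It gave 603 to 1785 calls in the labelled-knockout comparison, with 0 to 1 receptors, 3 to 8 organisers and 0 to 1 neighbours. By choices made after seeing the data, the log2 ratio of Gm2694 to Cbln1 reads without each library ran from 0.17 to 0.74 in the gain comparison and from -2.41 to -1.84 between the stages, and the microglial sum was taken without its C1q genes. Where 1 labelled-knockout library remained, it was assumed to vary like the other group. Values of members and of genes whose sign turned ran as follows. In the gain comparison Cbln3 ran from -0.91 to 0.17, Brd7 from -0.015 to 0.056, Dcc from -0.012 to 0.22, Grid1 from -0.35 to 0.062, Heatr3 from -0.16 to 0.023 and Nrxn3 from -1.18 to 0.60. In the labelled-knockout comparison Cbln4 ran from 0.14 to 0.37, Adcy7 from -0.0084 to 0.16, Brd7 from -0.13 to 0.015, Dcc from -0.29 to 0.039, Heatr3 from -0.011 to 0.049, Lonp2 from -0.0038 to 0.094, Nrxn2 from -0.044 to 0.077 and Siah1a from -0.065 to 0.0085. In the stage comparison Cbln2 ran from 0.19 to 0.90, Cbln3 from -0.78 to 0.28, Cbln4 from -4.28 to -2.06, Heatr3 from -0.13 to 0.047, L3mbtl3 from -0.13 to 0.0030 and Tent4b from -0.090 to 0.080.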
